A study of Rattus norvegicus with 12 samples.

Results

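Expression of 9 genes that mark B lymphocytes was described in rat mammary gland. These were Ms4a1, Cd79a, Cd79b, Pax5, Blk, Cr2, Fcer2, Cd22 and Cd37. They were taken by name from the table of read counts after its Entrez identifiers had been matched to symbols, and 8 of the 9 were found among 16511 genes. Cd79a was not analysed here. Whole mammary glands were collected from female Sprague-Dawley offspring at PND21, with 1 gland per litter. The dams of 6 litters had been given a high fat butter diet (HFB), and those of the other 6 litters the AIN control diet (CTL), before the pups were born. The labels give whole glands as the source of RNA, whereas the methods of the study describe sequencing of laser-microdissected samples and compare a butterfat diet with and without bisphenol A. Which tissue was sequenced was not settled by these sources, and the labels were followed. Newborns of both groups were kept on the AIN diet, and the sources used here differ on when the exposure of the dams ended. Libraries are named by diet and library number, HFB 1 to HFB 6, CTL 7 to CTL 11 and CTL 14.

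Total counts were 2320267 to 2760871 in the HFB libraries and 2403464 to 2944680 in the CTL libraries (two-sided exact permutation test of the difference in mean total, p = 0.561). Levels are given as CPM, the count of a gene scaled to a common library size with TMM factors. A level of 3 counts, taken as the floor of detection, was 0.945 to 1.30 CPM depending on the library. Intervals and floors cover counting error only.

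B cells recognise antigen through a surface immunoglobulin whose signal is passed on by the paired chains CD79A and CD79B. Co-receptors and inhibitory receptors on the same surface set the strength of that signal, and PAX5 keeps the cells committed to the B lineage. In the mammary gland B cells are found in the tissue between ducts and fat, and the lymph node that lies in the inguinal fat pad holds follicles of them.

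Libraries that stood apart have to be named before the diets are compared. HFB 6 and CTL 14 were the 2 libraries with the highest CPM for 6 of the 8 genes, a pattern also seen for 19.97% of the 13557 genes fitted without a filter, which include all 8. HFB 1 was the third highest for 6 of the 8 genes (9.81% of all genes), and HFB 1, HFB 2, HFB 6 and CTL 14 made up the top 4 for 6 of them (2.32% of all genes). The other 8 libraries held at most 36 counts of any member, the highest being Cd37 in HFB 5. In a tissue of mixed cells, fewer cells of a type and less RNA per cell cannot be told apart.

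Cd79b encodes a signalling chain of the B cell receptor. Its level in the HFB libraries ran from 1.07 to 261 CPM with a median of 10.99, and in the CTL libraries from 0.788 to 229 CPM with a median of 5.50. HFB 6 and CTL 14 each held 657 counts, whereas the next library, HFB 1, held 52, so that 88.0% of all 1493 Cd79b counts came from 2 of the 12 libraries. The diets overlapped over nearly their whole range. The log2 fold change of HFB against CTL was 0.31 (SE 1.37, edgeR adjusted p = 0.999).

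Ms4a1 encodes CD20, a membrane protein of B cells. Its level was 0.356 to 32.1 CPM in the HFB libraries, with a median of 4.83, and 0 to 38.6 CPM in the CTL libraries, with a median of 2.22. CTL 14 was the highest with 111 counts, followed by HFB 6 with 81, HFB 1 with 32 and HFB 2 with 19, and no other library exceeded 9. The log2 fold change was 0.26 (SE 1.17, edgeR without a filter, adjusted p = 0.998).

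Cd22 encodes an inhibitory co-receptor that binds sialic acid. Its level was 4.27 to 27.0 CPM in the HFB libraries (median 7.44) and 2.10 to 58.8 CPM in the CTL libraries (median 4.17). Cd22 was less concentrated than the genes above, with 59.0% of its 402 counts in HFB 6 and CTL 14, and it was counted at least 5 times in every library. For Cd22 the log2 fold change was -0.22 (SE 0.80, edgeR adjusted p = 0.999).

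Cd37 encodes a tetraspanin of the leukocyte surface that is abundant on B cells and also present on other leukocytes. Its level was 5.44 to 283 CPM in the HFB libraries (median 19.96) and 3.54 to 251 CPM in the CTL libraries (median 11.4). HFB 6 held 714 counts and CTL 14 held 722, against 70 in HFB 1 and 61 in HFB 2. The log2 fold change was 0.27 (SE 1.16, edgeR adjusted p = 0.999).

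**Figure D1:**
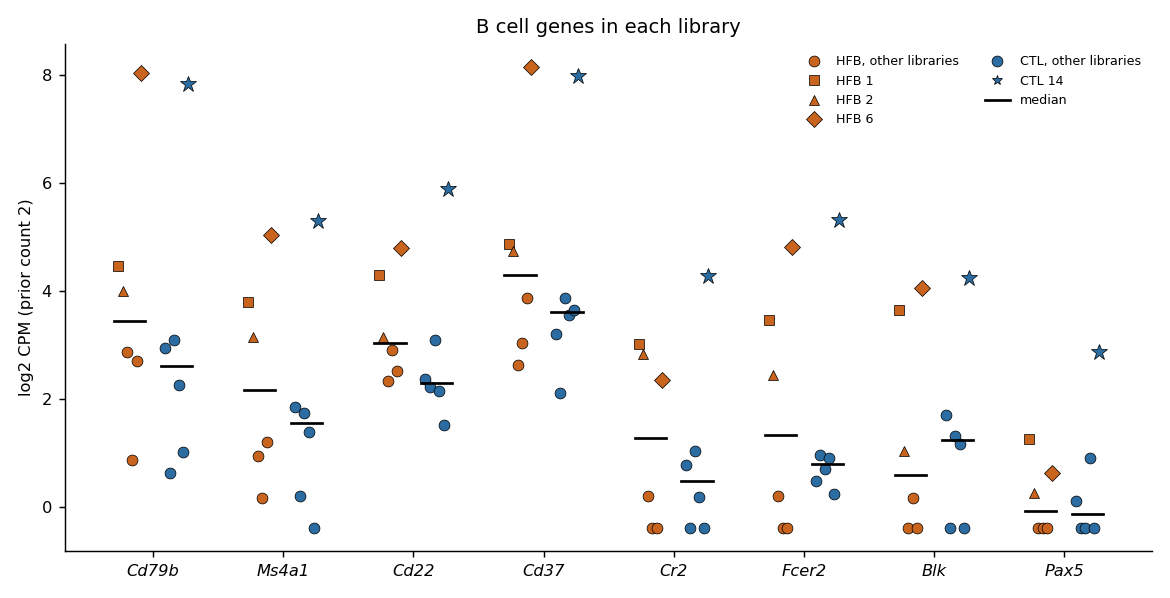
Level of each measured B cell gene in 12 libraries as log2 CPM with a prior count of 2, HFB in orange and CTL in blue, with the median of each diet as a bar. HFB 6 (diamond) and CTL 14 (star) lie above the other libraries for Cd79b and Cd37, and the diets overlap for all 8 genes.

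Promoters were looked up because these genes were high in the same libraries. RefSeq promoter sequences of build GRCr8, from 250 bases before to 50 after the gene start, were matched for 3 of the 8 measured members, Cd22 (chr1:95259681-95259980, minus strand), Cd37 (chr1:104860735-104861034, minus strand) and Cr2 (chr13:109244457-109244756, minus strand). Ms4a1, Cd79b, Pax5, Blk and Fcer2 were not matched. The sequences are written 5′ to 3′ along the gene, with capitals for GAGGAA, a motif of the type bound by the ETS factor PU.1, read on either strand. The shorter core GGAA common to ETS factors was not searched and is not marked.
Cd22: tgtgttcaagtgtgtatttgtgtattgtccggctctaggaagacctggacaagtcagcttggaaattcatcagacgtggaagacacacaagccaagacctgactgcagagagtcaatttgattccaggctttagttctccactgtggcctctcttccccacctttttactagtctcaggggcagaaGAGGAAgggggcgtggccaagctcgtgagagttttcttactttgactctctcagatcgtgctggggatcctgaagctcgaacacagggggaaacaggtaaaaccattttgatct
Cd37: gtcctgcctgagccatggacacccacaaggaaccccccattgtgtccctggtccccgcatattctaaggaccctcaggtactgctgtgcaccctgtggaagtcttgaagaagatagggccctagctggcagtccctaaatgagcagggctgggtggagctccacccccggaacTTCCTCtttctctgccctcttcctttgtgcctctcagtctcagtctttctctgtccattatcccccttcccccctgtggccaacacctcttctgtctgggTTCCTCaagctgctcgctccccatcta
Cr2: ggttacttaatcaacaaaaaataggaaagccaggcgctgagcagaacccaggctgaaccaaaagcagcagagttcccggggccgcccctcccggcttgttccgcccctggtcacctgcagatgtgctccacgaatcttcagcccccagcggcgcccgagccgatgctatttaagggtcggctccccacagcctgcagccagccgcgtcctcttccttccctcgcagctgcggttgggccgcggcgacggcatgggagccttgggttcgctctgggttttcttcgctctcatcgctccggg

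On both strands 14 motifs were searched, and the share of all 33469 promoters that held each is given in parentheses. Of 2 overlapping motifs of the PU.1 type, GAGGAA (27.6%) was present in Cd22 at -64 and in Cd37 at -77 and 24, and the longer AGAGGAAG (4.38%), which contains it, at -65 in Cd22 and -78 in Cd37. Cr2 held the E box CAGGTG (18.8%), the E box CAGCTG (15.1%) and the GC box GGGCGG (33.1%). The remaining 9 motifs had no match in the 3 promoters. These were the octamer ATGCAAAT (1.78%), a palindromic EBF1 motif (0.834%) and its inner part CCCNNGGG (12.4%), which it contains, as well as an IRF motif made of a repeated GAAA (3.92%) and the PAX5 core GCGTGAC (2.0%). They also included a loose NF-kB motif (19.3%) and a strict one (0.0747%) that is an instance of the loose one, the TATA box TATAAA (14.2%) and the CCAAT box, whose letters are CCAAT (37.5%). The motif shown in capitals was chosen after the matches had been seen. A match describes letters and not a bound site.

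Cr2 encodes the complement receptor CD21, which lowers the threshold for B cell activation and is also carried by follicular dendritic cells. Its level was 0 to 7.36 CPM in the HFB libraries (median 2.38) and 0 to 18.8 CPM in the CTL libraries (median 0.657). CTL 14 held 54 of the 106 counts, and HFB 1 with 18 and HFB 2 with 15 were above HFB 6 with 11. Cr2 thereby differed in order from Cd79b and Cd37, for which HFB 6 was the highest library. In the comparison of diets its log2 fold change was -0.24 (SE 1.22, edgeR without a filter, adjusted p = 0.998).

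Fcer2 encodes CD23, the low-affinity receptor for IgE on mature B cells. Its level was 0 to 27.4 CPM in the HFB libraries (median 2.54) and 0.419 to 39.0 CPM in the CTL libraries (median 0.987). CTL 14 held 112 counts and HFB 6 held 69, followed by HFB 1 with 25 and HFB 2 with 11, and no other library had more than 3. The log2 fold change was -0.05 (SE 1.32, edgeR without a filter, adjusted p = 0.998).

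Blk encodes a Src-family kinase that acts below the B cell receptor. Its level was 0 to 15.9 CPM in the HFB libraries (median 0.819) and 0 to 18.1 CPM in the CTL libraries (median 1.60). HFB 1 with 29 counts was close to HFB 6 with 40 and CTL 14 with 52, and HFB 2 held 3. Blk was the one member with a lower median in the HFB libraries. For Blk the log2 fold change was 0.27 (SE 1.23, edgeR without a filter, adjusted p = 0.998).

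Pax5 encodes the transcription factor of B lineage commitment and was close to the floor. Its level was 0 to 1.64 CPM in the HFB libraries (median 0.213) and 0 to 6.61 CPM in the CTL libraries (median 0.157). CTL 14 held 19 of 30 counts, 6 of the 12 libraries held none, and HFB 6 held 2. Its log2 fold change was -1.47 (SE 1.18, edgeR without a filter, adjusted p = 0.998), with an SE of the same order as that of Cd79b, which had 1493 counts.

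Between diets, edgeR called 0 of the 3 members that passed the filter on low counts, Cd79b, Cd22 and Cd37, beside 0 (0%) of all 9382 genes tested. At an unadjusted p under 0.05 edgeR counted 0 of the 3 members and 219 genes (2.33%). Without the filter, which 5 members did not pass, 0 of 8 members and 0 (0%) of 13557 genes were called, with 298 genes (2.2%) at an unadjusted p under 0.05. DESeq2 and limma-voom each called 0 genes, with 271 and 589 genes at an unadjusted p under 0.05. DESeq2 gave no p for Cd79b and Cd37, which it set aside for outlying counts. Of the 8 members 4 had a positive and 4 a negative log2 fold change with a median of 0.11, beside a median of 0.01 over all genes without the filter. With limma-voom, which gives each library a quality weight, all 8 were positive (50.7% of all genes without the filter). Their values ran from 0.06 for Blk to 1.21 for Cr2, and 0 of the 8 had an unadjusted p under 0.05. The diets overlapped for all 8 members, as for 99.9% of all genes without the filter, and 7 of the 8 had a higher median CPM in the HFB libraries, beside 44.2% of all genes. Genes with equal medians were not counted as higher, which can lower the share over all genes. For Pax5, one of the 7, both medians (0.213 and 0.157 CPM) lay below the floor.

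The direction of the members changed with single libraries. Without CTL 14 all 8 log2 fold changes were positive (52.1% of all genes without the filter), from 0.56 for Pax5 to 3.65 for Cd79b, and an unadjusted p under 0.05 was reached by 3 of the 3 members in the edgeR fit with the filter and by 2 of the 5 fitted without it. Over all genes the share at an unadjusted p under 0.05 was also higher than with 12 libraries, with 587 of 9467 genes (6.2%) with the filter and 836 of 13481 (6.2%) without. None of the members passed adjustment over all genes, with an adjusted p of 0.684 for Cd79b, Cd22 and Cd37, and 0 (0%) of all genes did. Without HFB 6 all 8 were negative (53.8% of all genes), from -2.08 for Cd79b to -0.36 for Cr2. Other single libraries reversed a member as well, Blk without HFB 1 (-0.22), Cr2 without HFB 4 (0.06) or HFB 5 (0.02) and Fcer2 without HFB 2 (0.08), HFB 3 (0.20), HFB 4 (0.25) or HFB 5 (0.22). Without both libraries, a choice made after seeing the data, all 8 were positive (51.95% of all genes), with 1.23 for Cd79b, 0.97 for Cd22 and 0.74 for Cd37, and edgeR called 0 genes. An unadjusted p under 0.05 was reached by 1 of the 3 members with the filter, Cd22 (0.0444, adjusted 0.93), beside 408 of 9386 genes (4.35%), and by 0 of the 5 fitted without it, beside 583 of 13347 genes (4.37%). In that comparison HFB 1 and HFB 2 were the libraries with the highest levels for 6 of the 8 members (4.26% of all genes). When these were left out as well, 2 of 8 were positive (48.9% of all genes). Those 4 libraries, HFB 6 and CTL 14 among them, were picked by the level of the members themselves. No difference between diets can thus be read from the last comparison or from the one without HFB 6 and CTL 14. The fit without CTL 14 kept HFB 6, and the fit without HFB 6 kept CTL 14, so that 1 diet alone held a very high library. No difference between diets can be read from these fits either.

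**Figure D2:**
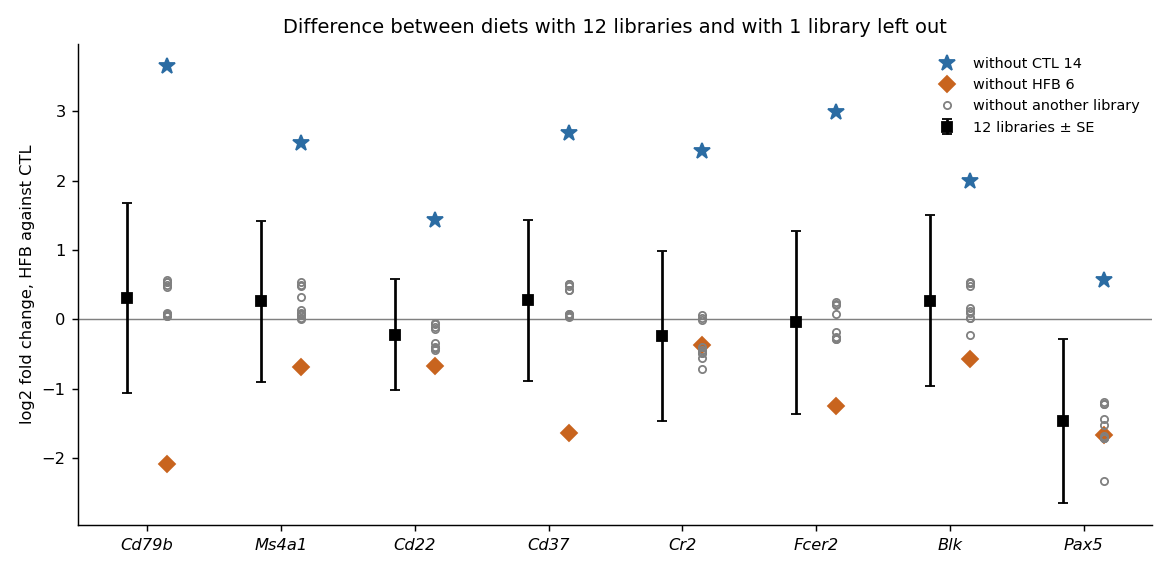
Log2 fold change of HFB against CTL for each B cell gene, with all 12 libraries (black square, bar of 1 SE) and with 1 library left out. Values lie above 0 for all 8 genes without CTL 14 (star) and below 0 for all 8 without HFB 6 (diamond).

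The mean log2 CPM of the 8 genes was 2.33 ± 1.62 (SD, n = 6) in the HFB and 1.96 ± 1.797 (SD, n = 6) in the CTL libraries. CTL 14 had a mean of 5.47 and HFB 6 of 4.74, followed by HFB 1 with 3.60 and HFB 2 with 2.70, and the other 8 libraries lay between 0.61 and 1.81. The difference of 0.36 was smaller than the SD within either diet, and it was -0.12 without HFB 6 and 1.07 without CTL 14. Summed over the members, CTL 14 reached 659.8 CPM and HFB 6 reached 652, against 113 in HFB 1, 70.4 in HFB 2 and at most 35.9 in any other library. The summed level was 149 ± 249 CPM in the HFB and 129 ± 260 CPM in the CTL libraries (SD, n = 6). This difference of 20.4 CPM was -80.7 without HFB 6 and 128 without CTL 14, and was also below 0 without CTL 7 (-0.33), CTL 8 (-3.39) or CTL 11 (-2.30).

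The proportion of some members to each other differed between the libraries that held most of their counts. Cd79b made up 89.0% of the Cd79b and Ms4a1 counts in HFB 6 (exact 95% interval 86.5 to 91.2%) and 85.5% in CTL 14 (82.9 to 88.0%). The share was 61.9% in HFB 1 (50.7 to 72.3%) and 65.5% in HFB 2 (51.4 to 77.8%), below both of those intervals. The other 8 libraries held 3 to 31 counts of the pair and their intervals were wide. Over 5 pairs of members, each of the other 10 libraries was set against HFB 6 and CTL 14. The interval lay below both of theirs in HFB 1 and HFB 2 for Cd79b with Ms4a1, in HFB 1 alone for Cd37 with Ms4a1, and in HFB 1 and CTL 7 for Cd79b with Blk. For Cd79b with Cd22 it did so in 7 of the 10 libraries, HFB 1, HFB 4, HFB 5, CTL 8, CTL 9, CTL 10 and CTL 11. For Cd79b with Cd37 it did so in HFB 4, HFB 5, CTL 10 and CTL 11 but not in HFB 1, where Cd79b made up 42.6% (33.7 to 51.9%) beside 47.9% in HFB 6 and 47.6% in CTL 14. These intervals compare libraries, not diets, and all 30 pairs of libraries within a diet differed by more than counting noise over all genes.

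**Figure D3:**
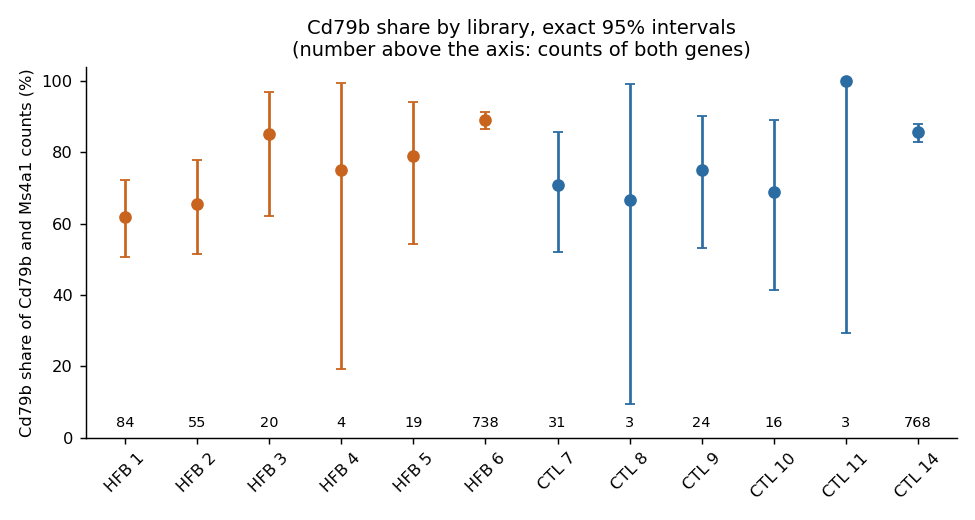
Cd79b as a percentage of the counts of Cd79b and Ms4a1 together in each library, with exact 95% binomial intervals, HFB in orange and CTL in blue. The share is 61.9% in HFB 1 and 89.0% in HFB 6.

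Set against CTL 14, the level of Cd79b in HFB 6 was 114% (exact 95% interval 102 to 127%) and that of Cd37 was 113% (102 to 125%). Cd22 in HFB 6 was at 45.9% of CTL 14 (34.1 to 61.1%) and Cr2 at 23.2% (10.95 to 44.9%), with Fcer2 at 70.3% (51.3 to 95.7%). In HFB 1 the order was another one. Blk in HFB 1 stood at 65.5% of CTL 14 (40.1 to 105%) and Ms4a1 at 33.9% (22.1 to 50.6%), whereas Cd79b stood at 9.30% (6.87 to 12.3%). These ratios cover counting error only and compare single libraries.

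Of the other genes of B cells, 87 were listed by role, 70 were measured and 44 passed the filter. edgeR called 0 of the 44, and 0 had an unadjusted p under 0.05, with 25 higher and 19 lower in the HFB libraries. In receptor signalling, 0 of 18 tested genes were called and the median log2 fold change was 0.02. Among the transcription factors 0 of 9 were called, with a median of -0.14, beside 0.00 over all tested genes. Pou2af1, a coactivator of octamer-binding factors, had 112 counts in CTL 14, 84 in HFB 6 and 32 in HFB 1, an order shared with Ms4a1.

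HFB 6 was the highest or second highest library for 6 of the 14 measured transcription factors, among the lowest 3 for 4 of them and in between for the other 4. It was the single highest for 1 of the 14, beside 22.9% of all tested genes. The 4 low in HFB 6, Ebf1, Ikzf1, Irf8 and Foxo1, were singled out after their values had been seen. Ebf1 was highest in CTL 9 with 37.2 CPM, followed by HFB 4 with 34.9 and CTL 10 with 34.0. It was 18.7 in HFB 6 and lowest in CTL 14 with 12.5 CPM, unlike the members. Ikzf1, a lymphoid zinc finger factor, was highest in HFB 1 with 35.2 CPM, followed by HFB 2 with 13.2, CTL 10 with 11.4 and CTL 14 with 7.66, and was 0.794 in HFB 6. Irf8 was highest in HFB 1 with 26.2 CPM, followed by CTL 14 with 11.8 and HFB 2 with 11.5, and was lowest in HFB 6. Foxo1 was highest in CTL 11 with 23.9 CPM, followed by HFB 1 with 22.9 and CTL 10 with 20.7, with 3.48 in CTL 14, and was also lowest in HFB 6.

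In the list for surface, survival and homing 0 of 11 tested genes were called (median log2 fold change 0.10). Cd74, the invariant chain of MHC class II, had 6645 counts in CTL 14 and 6433 in HFB 6, against 1067 in HFB 1. Of the germinal centre genes 0 of 3 tested were called (median 0.14). In the plasma cell and immunoglobulin list 0 of 3 were called (median 0.13). Tnfrsf17, a receptor of plasma cells, had 3 counts in CTL 14 and 0 in the other 11 libraries. HFB 6 and CTL 14 were the top 2 libraries for 3 of the 10 measured genes of this list (19.97% of all genes without the filter). These were Mzb1 with 34 counts in each, Derl3 with 17 and 13, and Cd27 with 537 and 578. Xbp1, the most abundant of the list, was lowest in CTL 14 with 176 CPM and next lowest in HFB 6 with 179. Immunoglobulin constant region genes were not analysed here.

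Markers of some other cells moved with the members over the libraries. T cell genes, of which 16 of 17 were measured, summed to 1533 CPM in HFB 6 and 1505 in CTL 14, to 569 in HFB 1 and 237 in HFB 2, and to at most 103 in any other library. Their most abundant gene was Lat, and HFB 6 and CTL 14 were the top 2 libraries for 12 of the 16 (19.97% of all genes without the filter). NK cell genes, led by Klrk1, summed to 86.0 CPM in CTL 14, 70.2 in HFB 6 and 39.7 in HFB 1. Genes of follicular stroma and high endothelial venules, led by Ccl21, summed to 3889 CPM in HFB 6 and 3449 in CTL 14, with 500.1 in HFB 1, 309.5 in HFB 2 and 254 to 452 in the other libraries. Ccl21 and Ltbr, which were counted in every library, make up much of these sums. HFB 6 and CTL 14 were the top 2 libraries for 6 of the 9 genes of this list (19.97% of all genes without the filter). Ltbr was lowest in CTL 14 with 119 CPM, and Tnfsf11 was highest in HFB 1 with 2.45 CPM. Ccl19, a chemokine of the T cell zone, had 1500 counts in HFB 6 and 1135 in CTL 14, then 68 in HFB 1 and 25 in HFB 2, and at most 13 in any other library. Glycam1, a mucin of high endothelial venules and also a milk protein, had 2586 counts in CTL 14, 2556 in HFB 6 and 88 in HFB 1, and at most 19 in any other library. Chst4, another venule gene, had 2 counts in all libraries together.

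Adipocyte genes, led by Fabp4, were lowest in the same libraries, with sums of 14969.8 CPM in CTL 14 and 18061 in HFB 6 against 28622 to 36310 in the others. Pan-leukocyte genes, led by Tmsb4x, summed to 6256 CPM in HFB 6 and 5732 in CTL 14 and to at most 3125 elsewhere. Macrophage and dendritic cell genes, led by Csf1r, were mixed. Their sum was lowest in CTL 14 with 273 CPM and was 367 in HFB 6. For 4 of the 12 measured, Cd68, Flt3, Xcr1 and Batf3, HFB 6 and CTL 14 were the top 2 (19.97% of all genes without the filter). Mammary epithelium genes, led by Krt8, summed to 695 CPM in HFB 6 and 687 in CTL 14 and to 124 to 647 in the others, and Cldn3 was at 0 throughout. HFB 6 and CTL 14 were the top 2 libraries for 3 of the 11 epithelium genes measured (19.97% of all genes without the filter), and 5 were highest in another library. Skeletal muscle genes (led by Acta1), red blood cell genes (led by Hbb) and proliferation genes (led by Pcna) were highest in HFB 6, HFB 2 and CTL 14, with 7972, 64961 and 442 CPM. The muscle genes did not follow the members, with 7903 CPM in CTL 11, 6961 in HFB 3 and 1464 in CTL 14. Over all 15 other lists edgeR called 0 of 112 tested genes, and 1, in the proliferation list, had an unadjusted p under 0.05. The part of the other cell types in the levels of the members was not tested.

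**Figure D4:**
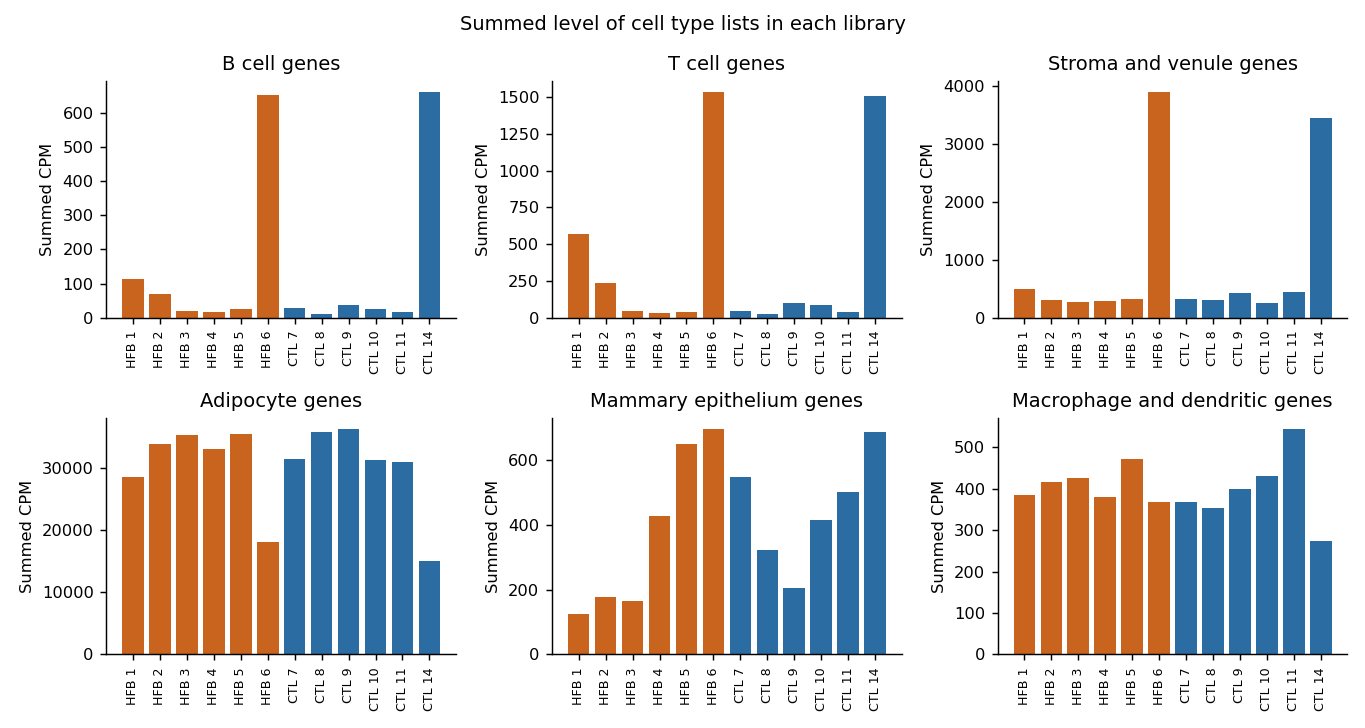
Summed CPM of 6 gene lists in each library, HFB in orange and CTL in blue. B cell, T cell and stroma and venule genes are highest in HFB 6 and CTL 14, and adipocyte genes are lowest there. HFB 1 and HFB 2 come next for B cell and T cell genes.

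Genes with the profile most like the mean of the members over 12 libraries were Lcp1 (Pearson r = 0.988), Grap (0.988), Acap1 (0.987), Cd27 (0.987), Coro1a (0.983), Il2rg (0.983), the gene with Entrez identifier 29347 (0.983), Evl (0.983), Arhgap45 (0.980) and Cd3g (0.980). Without CTL 14 they were Grap (0.990), Cd27 (0.989), Lcp1 (0.986), Cd3g (0.985), Acap1 (0.983), Coro1a (0.981), Phf11 (0.980), Phf11b (0.977), Arhgap45 (0.974) and Lck (0.974), so that 7 of 10 were shared. Among the members, each set against the mean of the other 7, r was highest for Ms4a1 (0.977) and lowest for Pax5 (0.826). Without HFB 6 and CTL 14, a choice made after seeing the data, 6 of the 10 genes over 12 libraries were again among the 10 most alike, led by Cd3g (0.985). Among the members r then ran from 0.754 for Pax5 to 0.964 for Ms4a1. It was lower than over 12 libraries for 7 of the 8, among them Cd37 (0.767, from 0.921), Cd22 (0.798, from 0.936) and Cd79b (0.847, from 0.946) and higher for Cr2 (0.947, from 0.916). The measure is a description over libraries of 1 tissue, and the libraries differ in composition. Cd3g and Lck belong to T cells, and Lcp1 and Coro1a are found in leukocytes in general.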

How the data were processed

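RNA was sequenced in 12 libraries, from whole mammary glands per the labels. The authors deposited raw counts per gene, without normalization, and the submitters' processing notes name bcl2fastq, CASAVA 1.8, TopHat, DESeq and build rn4; the counting program and the use of strand were not given in the sources used here. Entrez identifiers were matched to RefSeq symbols of GRCr8 (16351 of 16511), and no coordinates of the counts were used. Diets were compared with edgeR 4.0.16 (R 4.3.3; TMM, filterByExpr, glmQLFit robust, Benjamini-Hochberg over all genes tested, threshold 0.05). The 5 members below the filter were fitted without it. SE is the log2 fold change divided by the root of F. DESeq2 1.42.0, limma 3.58.1, other scalings and filters and each library left out were alternatives. Fits without HFB 6 and CTL 14, and without these and HFB 1 and HFB 2, were added after seeing the data. Robust dispersion estimates were used first and replaced by the default after results had been seen, which left the members' values unchanged. The tests were checked on simulated counts with 200 changed genes, and the outcome of that check is not reported here. Levels are CPM, with a prior count of 2 on the log2 scale. Shares have exact Clopper-Pearson intervals (scipy 1.17.1). Replicates within a diet differed by more than sampling noise in all 30 pairs (lowest chi-square per degree of freedom 7.10). Named genes are the members, list genes described by role, and the 10 most alike over 12 libraries and without CTL 14. Members and lists were chosen with earlier results of these data known.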

Additional observations from a re-analysis of the deposited data

Results flagged for a closer look

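Among 20 sets of 6 libraries examined, 8 held a value far from the rest, where chance gives about 1 in 20. CTL 14 lay far above the other CTL libraries in log2 CPM of Cd79b (7.84, next 3.10), Cr2 (4.29, next 1.05), Fcer2 (5.31, next 0.96), Cd22 (5.90, next 3.10) and Cd37 (7.98, next 3.87), and in the mean over the members (5.47, next 1.81). These genes share the library, are not independent and were chosen with earlier results known, so the chance rate does not hold for them. HFB 6 was not flagged among the HFB libraries. Its log2 CPM was still 8.03 for Cd79b (4.46 in HFB 1) and 8.15 for Cd37 (4.88 in HFB 1). Total counts stood apart in HFB 1, the lowest HFB library with 2320267, and in CTL 7, the highest CTL library with 2944680. Neither of these is HFB 6 or CTL 14. The cause was not tested.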

How the results depend on the processing

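In edgeR, DESeq2 and limma-voom, under other scalings and filters and with any library left out, 0 genes were called, and the count at an unadjusted p under 0.05 ran from 135 to 589 around 219. Over 155 alternative values of the members, 128 kept their direction and 27 reversed it, and the adjusted p ranged from 0.684 to 1.00. Of the 131 planned values 19 reversed, and of the 24 that were not planned 8 did. Those not planned include the values with robust dispersion, which repeated the main fit. With 1 library left out, log2 fold changes ranged from -0.68 to 2.54 for Ms4a1, -2.08 to 3.65 for Cd79b, -2.32 to 0.56 for Pax5, -0.58 to 1.99 for Blk, -0.71 to 2.43 for Cr2, -1.25 to 2.99 for Fcer2, -0.67 to 1.43 for Cd22 and -1.64 to 2.69 for Cd37. With limma-voom and sample quality weights, Pax5 was at 0.11, Cr2 at 1.21, Fcer2 at 0.41 and Cd22 at 0.78. Without both HFB 6 and CTL 14, chosen after seeing the data, Pax5 was at 0.35, Cr2 at 2.29, Fcer2 at 1.79 and Cd22 at 0.97, and 6 of the 10 most alike genes were shared with those over 12 libraries. Without HFB 1 and HFB 2 as well, Ms4a1 was at -0.61, Blk at -2.84, Cd22 at 0.29 and Cd37 at -0.12, with 627 genes at an unadjusted p under 0.05. HFB 6 and CTL 14, and then HFB 1 and HFB 2, were picked by the members' own level, so the values of both fits compare no diets. Robust dispersion, used first and then replaced by the default, gave 219 genes and the same values as the main fit for every member. It changed nothing, so no stability can be read from it. With 1 library left out, the mean log2 difference of 0.36 ranged from -0.12 to 1.07 and the summed difference of 20.4 CPM from -80.7 to 128; without both HFB 6 and CTL 14 they were 0.58 and 26.2, and without the 4 libraries -0.30 and -2.50. A filter of at least 10 counts in every library left no value for any member. No paired analysis was possible because library numbers were not repeated between diets. The causes were not tested.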
